A study of Mus musculus with 6 samples.

Results

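The genes described here carry the interferon response: the interferon receptors, the transcription factors that act behind them, and the genes that interferon induces. They were chosen as a list of 34 gene symbols, and the probe sets are those that the platform annotation lists under one of these symbols, current or older. Of the 34 genes, 29 had at least 1 of 36 probe sets listed under that gene alone. Ifi203 and Tgtp1 appeared only on probe sets listed with several genes, 3 of which hold members. Stat2, Irf2 and Bst2 were listed on no probe set, so their expression was not analysed, and they enter only the promoter search. The members thus occupied 39 of the 12488 probe sets on the array.

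Interferons are secreted proteins that warn cells of infection. Type I interferons (alpha and beta) bind the receptor chains Ifnar1 and Ifnar2, and interferon gamma binds Ifngr1 and Ifngr2. The receptors signal through Janus kinases to transcription factors. After a type I signal, a complex that holds Irf9 binds the interferon-stimulated response element (ISRE). Interferon gamma acts through the gamma-activated site (GAS). Embryonic stem cells, the pluripotent cells of the early embryo kept in culture, are known to respond only weakly to type I interferon and to produce little of it.

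The arrays compare wild-type mouse embryonic stem cells with 2 lines in which 3 linker histone genes, H1c (now H1f2), H1d (now H1f3) and H1e (now H1f4), were inactivated. These linker histones sit on the outside of the nucleosome and help to pack chromatin. Each of the 3 lines was measured on 2 arrays, labelled experiment 1 and experiment 2, with RNA from cells in exponential growth. No interferon or other agent is named in the labels, which also give neither strain, sex nor passage. Whether both arrays of a line hold RNA of different cultures is not stated either, so the spread behind each p-value is that between arrays and may be technical. As the labels name a single wild-type line, differences between this line and the null lines that are not due to H1 cannot be told apart from those that are.

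The values are MAS5 intensities, 1 per probe set and array, on a common scale. Median signals per array lay between 34.1 and 39.5 intensity units. A signal is called above background here where it exceeds the brightest of 19 bacterial and yeast controls on the same array, which lay at 9.1 to 17.2. H1f2 measured 70 and 68.2 in wild type and 11.1 to 14.4 in the null lines. H1f3 and H1f4 were at background on all 6 arrays and check nothing. All 10 embryonic stem cell markers examined, Pou5f1, Nanog and Sox2 among them, were above background on all 6 arrays. Of 11 immune cell markers on the array, 6 were at background on all 6 arrays (Ptprc, Cd3e, Cd8a, Itgam, Adgre1 and Lyz2). Cd68 (68.1 to 96.7) and Cd14 (67.3 to 97) were above it on all 6, Cd4 and Cd79a on 5, and Csf1r on 4.

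Many interferon-induced promoters carry response elements close to the start site. Because the letters of these elements tie the induced genes to the pathway, they were searched in all members with a listed promoter. The stretches printed are from members with measurable signal. Of the 34 members, 29 were matched in a RefSeq table of promoters (assembly GRCm38.p6), each reaching from 250 bases before the start site to 50 after it. The ISRE was searched on both strands as a pair of GAAA runs with any 2 bases between them, and occurred in 16 of these 29 genes, against 3.99% of the 27025 genes in the table. The letters TTCNNNGAA, used for the GAS and equal on both strands, occurred in 12 of 29, against 9.55%. A match is a description of the sequence and not proof of a bound site. The 4 upstream stretches printed here belong to the members with the largest change in the null cells among those that were tested, above background on all 6 arrays and held either motif upstream. Each is printed 5′ to 3′ along the gene's strand, with matches in capitals: the ISRE letters in Gbp2, Irgm1 and Isg15, and the GAS letters in Irf1. In Gbp2 the capitals are the match read on the opposite strand. In Irgm1 and Isg15 adjacent ISRE matches overlap and form 1 run.
Gbp2: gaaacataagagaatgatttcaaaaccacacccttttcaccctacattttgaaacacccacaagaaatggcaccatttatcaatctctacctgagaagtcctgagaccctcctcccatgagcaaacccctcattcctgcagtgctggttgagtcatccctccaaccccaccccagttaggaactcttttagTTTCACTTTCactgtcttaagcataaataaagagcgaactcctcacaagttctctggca
Irgm1: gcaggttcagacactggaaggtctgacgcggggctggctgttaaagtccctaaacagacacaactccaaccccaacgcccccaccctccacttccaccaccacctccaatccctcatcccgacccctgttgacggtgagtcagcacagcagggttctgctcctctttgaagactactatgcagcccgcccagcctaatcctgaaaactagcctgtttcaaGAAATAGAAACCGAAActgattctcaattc
Isg15: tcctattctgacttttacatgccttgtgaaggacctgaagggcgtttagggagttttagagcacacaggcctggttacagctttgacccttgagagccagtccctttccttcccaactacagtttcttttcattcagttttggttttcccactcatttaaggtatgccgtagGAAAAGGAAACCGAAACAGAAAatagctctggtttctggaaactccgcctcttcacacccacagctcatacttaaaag
Irf1: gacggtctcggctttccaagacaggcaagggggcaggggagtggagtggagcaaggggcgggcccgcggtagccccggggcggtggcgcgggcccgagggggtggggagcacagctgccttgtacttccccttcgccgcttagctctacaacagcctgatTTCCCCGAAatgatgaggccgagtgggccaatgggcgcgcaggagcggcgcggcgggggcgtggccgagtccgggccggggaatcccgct

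The Gbp2 stretch is chr3:142620413-142620662 on the plus strand, and its match starts 59 bases before the start site. The Irgm1 stretch is chr11:48871421-48871670 on the minus strand, with matches starting 30 and 24 bases before it. The Isg15 stretch is chr4:156200819-156201068 on the minus strand, with 3 matches starting 78, 72 and 66 bases before it. The Irf1 stretch is chr11:53769764-53770013 on the plus strand, with its GAS match, TTCCCCGAA, starting 90 bases before it. The ISRE letters of Gbp2, GAAAGTGAAA, were also found in the promoters of Ifit1, Ifit3 and Cxcl10. Those of Irgm1 and Isg15 shared GAAACCGAAA with Socs1. The letters GAAACTGAAA were the most frequent among the members and occurred in 7 of them: Bst2, Gbp3, Ifit1, Ifit3, Igtp, Stat2 and Tgtp1. The ISRE letters were held by 7 of 14 genes above background on all 6 arrays. They were held by 3 of 6 matched genes above background on none.

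**Figure D1:**
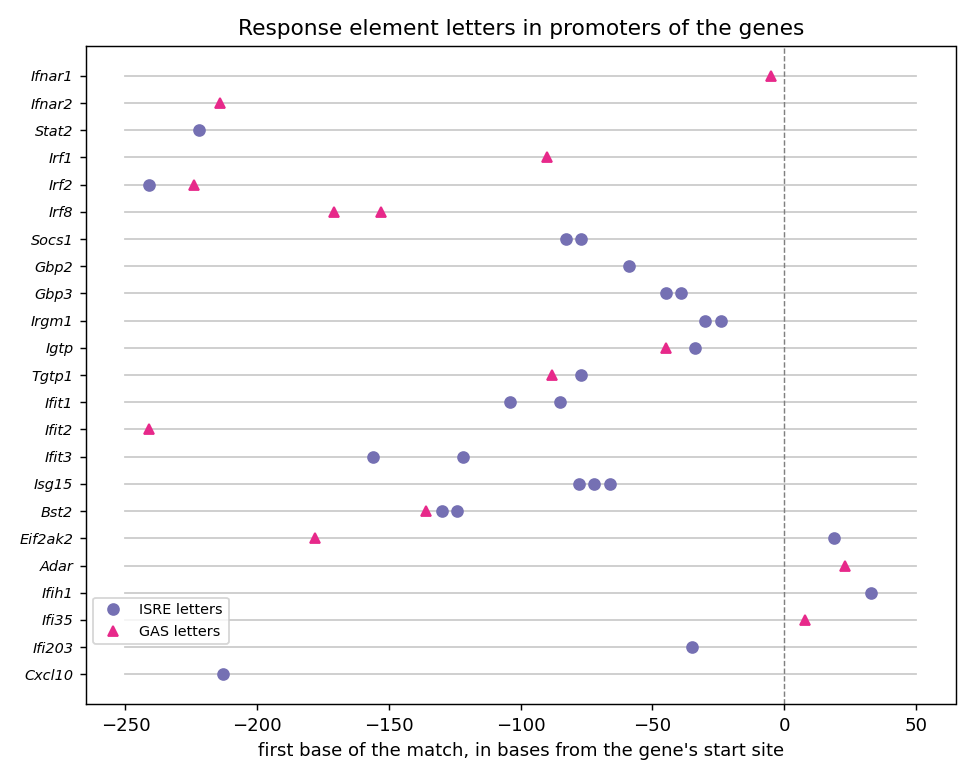
Positions of ISRE letters (circles) and GAS letters (triangles) in the promoters of the 23 members that hold either, as the first base of the match in bases from the gene's start site (dashed line at 0). Most ISRE matches lie before the start site; those of Eif2ak2 and Ifih1 lie after it, at 19 and 33 bases.

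Several induced genes were at background in wild-type and null cells alike, while others were measurable. Of the 29 genes, 14 were above background on all 6 arrays, 7 on some, and 8 on none. The 8 were Ifit1, Ifit2 and Ifit3, whose proteins bind viral RNA or block its translation; Mx1, a dynamin-like antiviral GTPase; Usp18, the protease that removes ISG15 and damps receptor signalling; Ifi47, an immunity-related GTPase; Cxcl10, a chemokine; and Ifi35. Ifit1 lay between 1.1 and 2.6 over the 6 arrays, Ifit2 between 1 and 2.9, Usp18 between 0.7 and 2.3, and Mx1 between 0.8 and 4.5. Cxcl10 reached 12.4 on the experiment 1 array of null line 2, still under that array's background of 12.5. For these genes only a bound can be given, and no difference between lines could be read.

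A further set of dim genes was above background on some arrays. Tests were run on probe sets whose mean over all arrays reached 20.9 intensity units, the 40th percentile, which kept 13 of the 29 genes. The filter removed 16, with the 8 above among them.

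Mx2, another antiviral Mx GTPase, measured 4.4 and 13.4 on the wild-type arrays, both under background, 15.3 and 15.1 in null line 1 and 15.7 and 18.9 in null line 2, each above its array's background. All 4 null values thus exceeded both wild-type values. As a ratio of the geometric means of the groups, with the wild-type arrays set at their background, the difference was at least 1.29-fold. This bound rests on the wild-type array with the lower background, 9.2. Of the null values only 18.9 exceeded the brighter wild-type background of 17.2, while 15.3, 15.1 and 15.7 lay under it. Against that array no difference can be read for these 3 values. When the filter was dropped, the limma adjusted p of Mx2 was 0.606. Irf8, a transcription factor of myeloid cells, measured 10.7 and 13.2 in wild type, 17.4 and 19.1 in line 1 and 18.8 and 21.3 in line 2. Its null arrays also lay above both wild-type arrays, all 4 above background against 1 of 2 in wild type. Without the filter its change was 0.60 ± 0.15 (SE, limma adjusted p = 0.393).

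Iigp1, an immunity-related GTPase that coats vacuoles of intracellular pathogens, stood the other way on 1 of its probe sets. Probe set 103963_f_at measured 13.5 and 12.8 in wild type, 2.6 and 4.3 in line 1 and 6.3 and 5.8 in line 2. Only the first of these 6 values exceeded the background of its array, so no fold is given. Its other probe set, 96764_at, was at background on all arrays. Ifih1, the MDA5 sensor of double-stranded RNA, measured 15.9 and 19.5 in wild type, 14.9 and 14.7 in line 1, and 13.9 and 11.6 in line 2. Without the filter the limma adjusted p was 0.202 for this probe set of Iigp1 and 0.648 for Ifih1, whose change was -0.32.

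Eif2ak2, the kinase PKR, and Igtp, another immunity-related GTPase, were above background on all 6 arrays and under the filter. They ranged from 16.6 to 23.5 and from 13.4 to 21.2, and the lines overlapped in both. Ifnar2 lay between 10.6 and 16.5 and Ifi204, a DNA-binding protein of the interferon-inducible p200 family, between 5.7 and 20.1, each above background on 3 arrays. A further Ifnar2 probe set, 101015_s_at, measured 14 and 7.1 in wild type, 15.8 and 17.9 in line 1, and 12.2 and 7.6 in line 2. It too was above background on 3 arrays. The other probe sets of Ifi204 alone, 98466_r_at and 98465_f_at, were at background on all 6 arrays. The 3 probe sets listed with several genes, 93321_at (Ifi203 with 2 others), 94224_s_at (Ifi204 with 3 others) and 102906_at (Tgtp1 with Tgtp2), were at background on all 6 arrays.

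**Figure D2:**
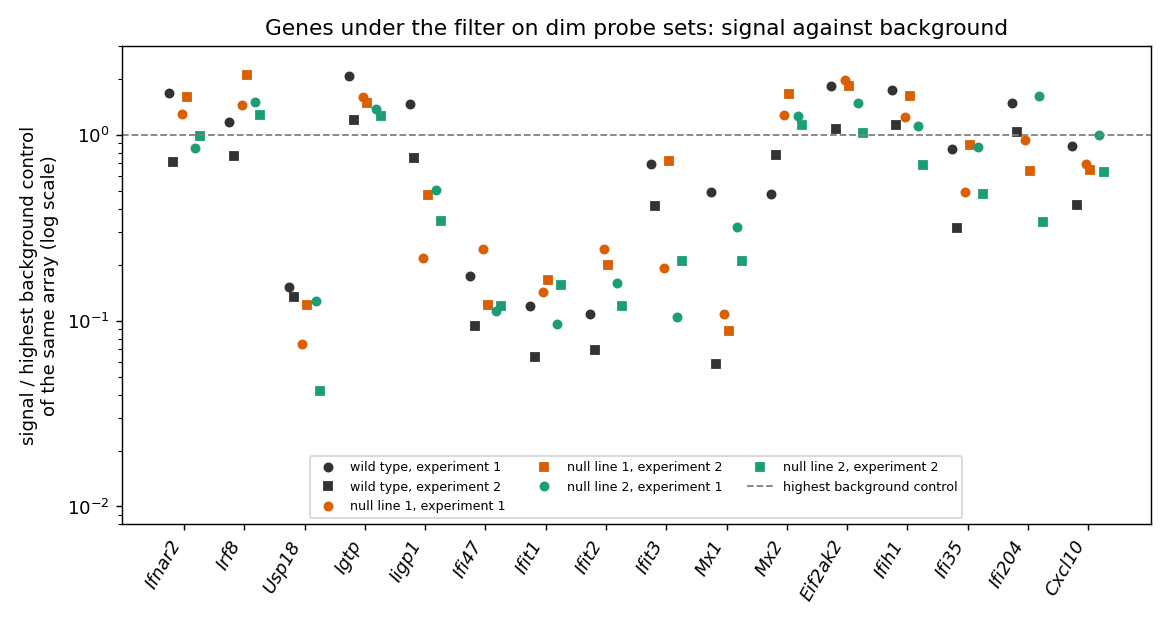
Signal of the 16 genes under the filter, divided by the highest background control of the same array (log scale); colours mark the lines, circles experiment 1 and squares experiment 2. The Ifit genes, Mx1, Usp18 and Ifi47 lie below the dashed line at 1 on every array, and Mx2 lies above it on the 4 null arrays and below it on both wild-type arrays.

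Among the 13 genes tested, none passed the threshold of adjusted p 0.05 in the average of the null lines against wild type. The test was limma's, fitted to all probe sets with a mean per line. In that comparison 0.416% of the 7453 probe sets tested passed, 0.282% higher and 0.134% lower. At an unadjusted p under 0.05 the count was 1 of the 13, Gbp2, against 12.7% of all probe sets. Of the 13 changes, 10 were negative and 3 positive, beside 47.3% positive over all probe sets. Their median was -0.16 on the log2(value + 2) scale, beside -0.01 for all probe sets tested. All 4 null arrays lay below both wild-type arrays for 3 genes, Gbp2, Irgm1 and Ifngr2, against 12% of all probe sets. They lay above for 1 gene, Irf9, against 11%.

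The guanylate-binding protein Gbp2, a GTPase that interferon gamma induces strongly, had the lowest unadjusted p of the members. Its probe set 104597_at measured 268.7 and 271.4 on the wild-type arrays, 166.1 and 133.5 in null line 1, and 152.9 and 144.4 in null line 2. The groups did not overlap, and all 4 null arrays were well under both wild-type arrays. The means were 270.1 ± 1.91 (SD, n = 2 arrays) in wild type and 149.2 ± 13.8 (SD, n = 4 arrays of 2 lines) in the null cells, 1.8-fold apart. The log2 change was -0.85 ± 0.13 (SE), with an unadjusted p of 0.0005 and a limma adjusted p of 0.0745. It was -0.85 in each null line (adjusted p = 0.161 in line 1 and 0.113 in line 2), and the lines differed by 0.00 ± 0.15 (SE). Gbp2 passed the threshold in 4 of 14 alternative settings, whose adjusted p ranged from 0.0155 to 0.512, with changes between -0.93 and -0.77.

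Gbp3, which lies 47.5 kb from Gbp2 on chromosome 3 and encodes a related GTPase, had no such gap. It measured 56.7 and 50.8 in wild type, 39.7 and 58.5 in line 1, and 55.4 and 58.9 in line 2, and the groups overlapped. The log2 change was -0.03 ± 0.17 (SE, limma adjusted p = 0.964). The difference between the changes of the 2 genes was not tested. Irgm1, an immunity-related GTPase that regulates the others, measured 43.2 and 52 in wild type, 40.9 and 20.5 in line 1, and 36.7 and 36.2 in line 2. The lowest value belongs to the experiment 2 array of line 1, and all 4 null arrays were under both wild-type arrays. The log2 change was -0.52 ± 0.26 (SE, limma adjusted p = 0.466).

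Signs of other cells were compared with the Gbp2 values. Of 14 fibroblast markers, which feeder cells would contribute, 6 were above background on all 6 arrays. The summed signal of all 14 was 1442 to 1472 on the wild-type arrays, 1088 to 1214 in line 1 and 1239 to 1273 in line 2, lower in the null cells. Acta2 and Fn1, the brightest of the list in wild type, had the largest falls in intensity units, and the sum rests mostly on the bright markers. Within that list the collagens Col1a1 and Col1a2 averaged 158 and 219 in wild type, 160 and 243 in line 1, and 160 and 234 in line 2, while Acta2 measured 561, 296 and 394. Fn1 (336, 277 and 293) and the dim Dcn (24.8, 17.55 and 11.6) also averaged lower in both null lines. The dim Col5a2 (14.5, 24.85 and 21.85) and Thy1 (6.25, 15.35 and 14.4) averaged higher. Of the 6 markers tested, 4 changes in the null average were negative and 2 positive, and none passed by limma. All 14 were above background on at least 1 array, though Postn on only 1 and Thy1, Pdgfrb and Lum on only 2 each. The part of these markers in the Gbp2 result was not tested. The summed signal of the 11 immune cell markers was 245 to 280 in wild type, 259 to 284 in line 1 and 232 to 275 in line 2.

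**Figure D3:**
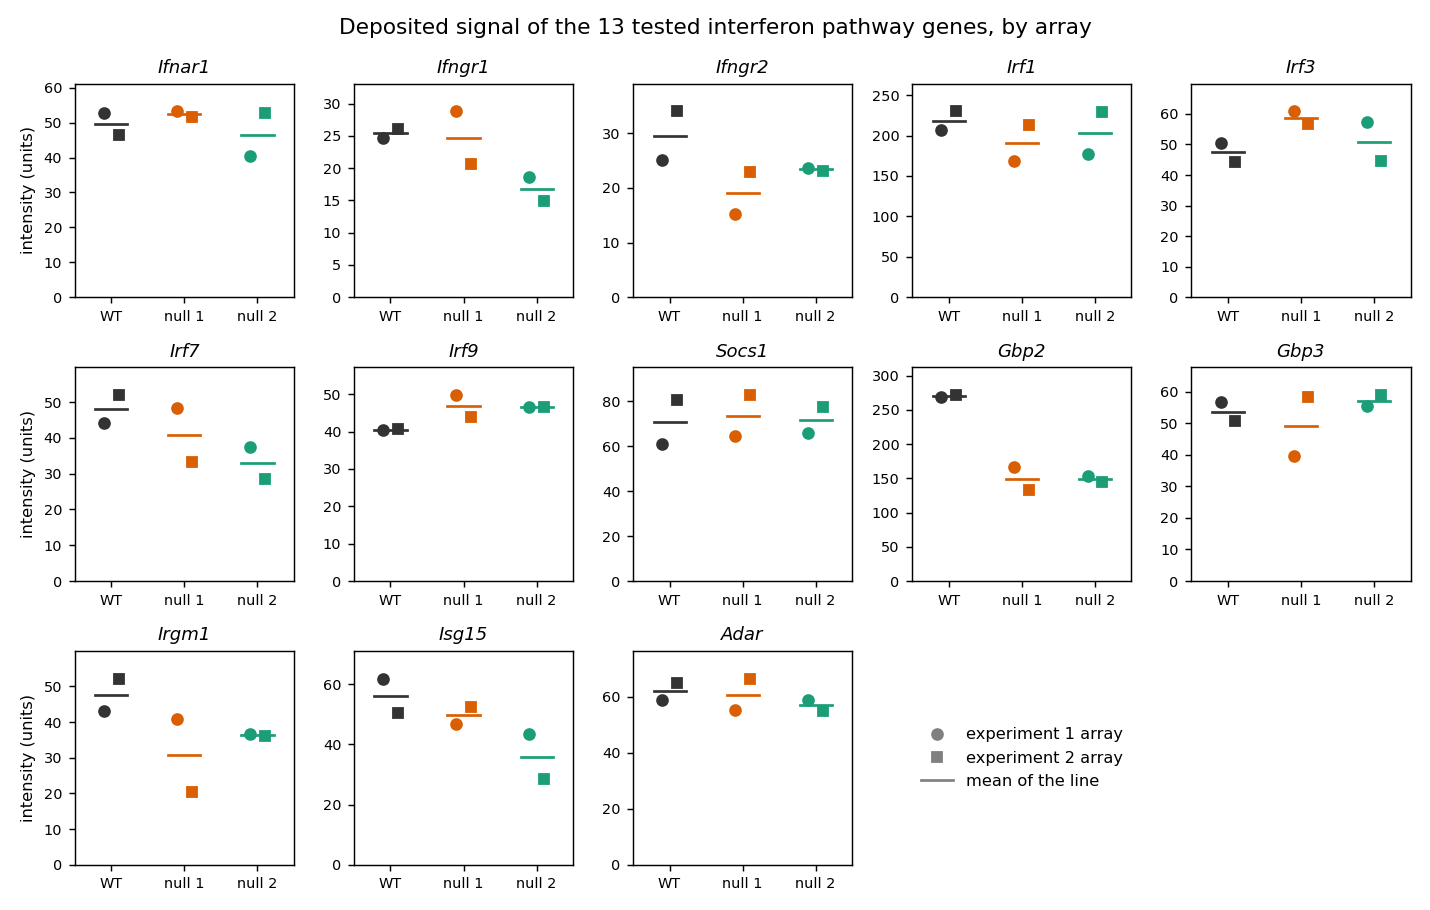
Deposited intensity of the 13 tested genes on each array, by line (WT, wild type; null 1 and null 2, the triple-null lines); circles are experiment 1, squares experiment 2, bars the mean of the line, and each axis starts at 0. In the Gbp2 panel the 4 null arrays sit between 133.5 and 166.1 and the wild-type arrays at 268.7 and 271.4; both null lines overlap wild type in the panels of Socs1, Gbp3, Ifnar1 and Irf1.

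No receptor chain passed the test either. Ifnar1, which starts type I signalling with Ifnar2, measured 52.9 and 46.5 in wild type, 53.2 and 51.7 in line 1, and 40.4 and 52.7 in line 2. Its log2 change was -0.01 ± 0.14 (SE, limma adjusted p = 0.985). Ifngr2, the signalling chain of the gamma receptor, measured 25.1 and 34 in wild type, 15.3 and 22.9 in line 1, and 23.7 and 23.1 in line 2. All 4 null arrays were under both wild-type arrays without a wide gap, and the change was -0.44 ± 0.19 (SE, limma adjusted p = 0.418). Ifngr1, the ligand-binding chain, measured 24.7 and 26.1 in wild type, 28.8 and 20.7 in line 1, and 18.6 and 14.9 in line 2, the last below that array's background of 16.8. Line 1 overlapped wild type and line 2 did not. Ifnar2, Ifnar1 and Ifngr2 are neighbours on chromosome 16, 79.4 and 36.5 kb apart.

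None of the transcription factors passed the test. Irf1, which interferon gamma induces through a GAS, measured 207.3 and 229.7 in wild type, 168.2 and 213.4 in line 1, and 176.7 and 229.2 in line 2. Both null lines overlapped wild type, and the change was -0.16 ± 0.16 (SE, limma adjusted p = 0.739). Irf9, the DNA-binding subunit of the factor that recognises the ISRE, measured 40.3 and 40.8 in wild type, 49.7 and 43.9 in line 1, and 46.5 and 46.6 in line 2. All 4 null arrays were above both wild-type arrays, with a change of 0.19 ± 0.11 (SE, limma adjusted p = 0.514). Irf3, the constitutive factor that switches on interferon beta, measured 50.6 and 44.2 in wild type, 60.8 and 56.8 in line 1, and 57.2 and 44.5 in line 2, with line 2 overlapping wild type. Its change was 0.20 (limma adjusted p = 0.614).

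Irf7, the inducible factor that amplifies interferon alpha production, was read by probe sets that did not match. Probe set 162202_f_at measured 44.2 and 51.9 in wild type, 48.3 and 33.2 in line 1, and 37.5 and 28.5 in line 2, a change of -0.39 ± 0.19 (SE, limma adjusted p = 0.47). Probe set 104669_at exceeded background on 1 array, at 12.9 in line 1. Irf3 likewise had a further probe set, 162425_f_at, at background on all 6 arrays.

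Of the remaining tested genes, Isg15, a ubiquitin-like protein that is joined to other proteins after interferon, differed most. It measured 61.7 and 50.6 in wild type, 46.8 and 52.5 in line 1, and 43.4 and 28.6 in line 2. Line 1 overlapped wild type, line 2 did not, and the change was -0.40 ± 0.19 (SE, limma adjusted p = 0.446). Socs1, the feedback inhibitor of Janus kinases, measured 60.8 and 80.7 in wild type, 64.4 and 82.7 in line 1, and 66.1 and 77.5 in line 2. The groups overlapped fully, with a change of 0.04 ± 0.17 (SE, limma adjusted p = 0.949). Adar, which edits adenosine to inosine in double-stranded RNA, lay between 55 and 66.3 on its brighter probe set, with a change of -0.08 (limma adjusted p = 0.846). Its other probe set, 102741_at, measured 5.9 and 5.5 in wild type, 13.1 and 4.1 in line 1, and 20.5 and 9 in line 2. Only 13.1 and 20.5 exceeded the background of their arrays, and 13.1 lay under the brighter wild-type background of 17.2. The null and wild-type arrays overlapped.

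**Figure D4:**
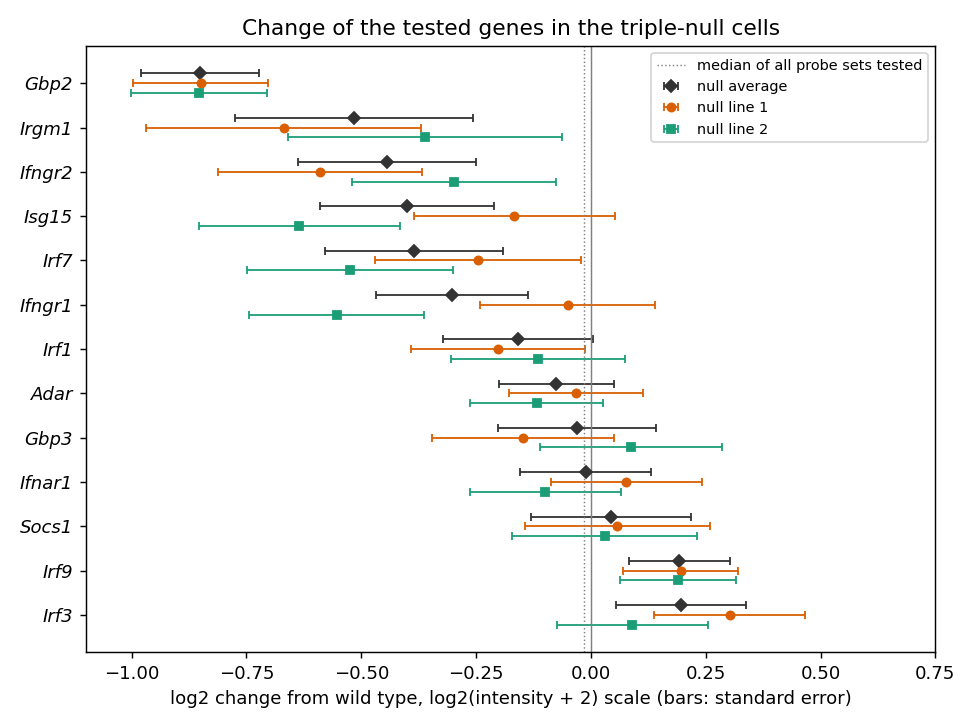
Log2 change from wild type of the 13 tested genes, with standard errors, for the null average (diamonds), null line 1 (circles) and null line 2 (squares); the dotted line is the median of all probe sets tested, at -0.01. Gbp2 lies at -0.85 in both lines, and the lines spread apart most for Ifngr1 and Isg15.

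Against wild type, each line gave no call among the 13 genes by limma. In line 1, 0.134% of all probe sets passed, and 2 members, Gbp2 and Ifngr2, had an unadjusted p under 0.05, against 9.49% of all. The line 1 mean of Ifngr2, 19.1, lay under the filter, which Ifngr2 passed through its brighter arrays of wild type and line 2. Without the filter the unadjusted p of Ifngr2 in line 1 was 0.0603 by limma. In line 2, 0.255% of all probe sets passed, and 3 members, Gbp2, Isg15 and Ifngr1, had an unadjusted p under 0.05, against 14.1% of all. The line 2 mean of Ifngr1, 16.75, lay under the filter, which Ifngr1 passed through its brighter arrays of wild type and line 1. Without the filter its unadjusted p in line 2 was 0.0458 by limma. The median change was -0.15 in line 1 and -0.12 in line 2. Both comparisons use the same wild-type arrays. The arrays of line 2 lay below both wild-type arrays for 7 genes, Adar, Isg15, Gbp2, Irgm1, Ifngr1, Ifngr2 and Irf7, against 25.2% of all probe sets. Those of line 1 did for 3 genes, Gbp2, Irgm1 and Ifngr2, against 20.6%.

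The difference between the null lines was tested directly. None of the 13 genes passed (limma, 0.0268% of all probe sets did), and 1 gene, Ifngr1, had an unadjusted p under 0.05, against 7.55% of all. This gene averaged 24.75 in line 1 and 16.75 in line 2, the latter under the filter, which was set on the mean over all arrays. Without the filter its unadjusted p between the lines was 0.0618 by limma. Ifngr1 was lower in line 2 than in line 1 by a log2 difference of -0.50 ± 0.19 (SE, limma adjusted p = 0.627), and Isg15 by -0.47 (limma adjusted p = 0.637). Irgm1 and Ifngr2 differed the other way, by 0.31 and 0.29 (limma adjusted p = 0.798 and 0.745). The effects seen in 1 line and not in the other are therefore not shown to differ between the lines.

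Ligands and other pathway genes gave no call either. Of 11 interferon genes listed, 9 were on the array. Ifna5 and Ifnab were tested, at changes of -0.25 and -0.13, and Ifng, Ifna7 and Ifna11 were at background on all 6 arrays. The others were under the filter and above background on some arrays: Ifna2 and Ifnb1 on 1 each, Ifna4 on 3 and Ifna9 on 4. Of 53 further pathway genes, 35 were on the array and 21 were tested. By limma, none passed in either direction in the null average, against 0.416% of all probe sets tested. Of these changes, 5 were positive and 16 negative, beside 47.3% positive over all probe sets. The median was -0.13, beside -0.01 for all. Among the kinases that serve the receptors, Jak1 measured 106.6 and 110.2 in wild type, 92.1 and 79.7 in line 1, and 69.6 and 84.8 in line 2, with all null arrays lower (-0.41 ± 0.13, SE, limma adjusted p = 0.297). The kinase Jak2 had a change of -0.03 (-0.32 in line 1 and 0.25 in line 2), and the kinase Tyk2 of 0.28, with limma adjusted p of 0.948 and 0.647 in the null average. The transcription factor Stat3 had a change of -0.18 (limma adjusted p = 0.612).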

How the data were processed

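Each of 3 lines was hybridised to 2 arrays of 12488 probe sets. The values deposited by the authors are intensities from MAS5 (named in the submitters' processing notes, version not given in the sources used here). The authors' scaling, which gave every array the same trimmed mean, was kept. Gene names are those of the platform annotation, updated by gene ID through RefSeq (GRCm38.p6), which matched 10839 of 10855 probe sets with 1 gene. The probe set with the highest mean stood for a gene. The deposited intensities were tested as log2(value + 2), where 2 is the 10th percentile, so changes of dim genes are understated. Control probe sets (66) and probe sets with a mean under 20.9 were left out. The main test was limma 3.58.1 (R 4.3.3, lmFit then eBayes) with 1 mean for each line and Benjamini-Hochberg adjustment over 7453 probe sets. The procedure was tested on simulated data. Bounds set the geometric mean of the brighter arrays against the higher of signal and background on the dim arrays. Members, gene lists and motifs were chosen with earlier results of these data known. All members on the array are named, and other genes come from fixed lists. Alternatives were the pseudocount, filter, quantile normalization, a spread that follows the signal, 1 null group, a replicate block, probe set averages and each array left out. The number of arrays limits the precision. Figures used matplotlib 3.10.9.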

Additional observations from a re-analysis of the deposited data

How the results depend on the processing

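No member reversed a called direction, since none was called. Of the single-gene values recomputed, 590 stayed on their side of the threshold within 1 SE, 52 moved by more than 1 SE and 7, all of Gbp2, passed the threshold. Gbp2 was the 1 member called in the null average with a pseudocount of 16, with the 60th percentile filter and with a spread that follows the signal. It was also the 1 member called there with 1 null group, which takes the arrays of both null lines as replicates of each other. It was the 1 member called in line 1 with the spread that follows the signal, and in line 2 with that spread and with the 60th percentile filter. The count was 0 with every array left out in turn. The cause of these shifts was not tested.

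Counts over all probe sets moved more. In the null average the 31 calls became 54 with a pseudocount of 16, 8 without the filter, 64 with the 60th percentile filter, 101 with the spread that follows the signal, and 7 to 13 with 1 array left out. In line 1 the 10 calls became 5 without the filter, 17 with the 60th percentile filter, 42 with that spread, and 4 to 9 with 1 array left out. In line 2 the 19 calls became 31, 5, 59, 92 and 0 to 10 under the same changes (pseudocount, no filter, 60th percentile, spread, 1 array left out). Between the null lines the 2 calls became 1 with the pseudocount, the 60th percentile filter or quantile normalization, and 0 without the filter or with any array left out. In these fits a lone array was assumed to vary like the other groups.

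With the experiment number as a replicate block, the calls were 14 in the null average and 0 between the lines, and no member was called. The correlations of same-numbered arrays' deviations were 0.053, 0.0948 and 0.0732, all weak and positive. What the numbers share between the lines is not stated in the labels. A pairing of the arrays was thus neither shown nor excluded, and the main test used none.

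The median change of the members stayed negative. It was -0.075 without the filter and -0.23 to -0.074 with 1 array left out in the null average. In line 1 it was -0.089 without the filter, -0.20 with the 60th percentile filter, -0.051 with probe sets of a gene averaged, and -0.16 to -0.032 with 1 array left out. In line 2 it was -0.052 without the filter and -0.28 to -0.094 with 1 array left out. Between the lines it was -0.158 to -0.0034 with 1 array left out. Signals near background limit what can be read for the genes under the filter.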

Other observations

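Ube2l6, the enzyme that joins ISG15 to its targets, stood apart among the pathway genes under the filter and is named here after its values were seen. It measured 5.5 and 6.6 on the wild-type arrays, both at background, 14.9 and 32.6 in null line 1 and 23.3 and 17.1 in null line 2, all above background. As a ratio of the geometric means of the groups, with the wild-type arrays set at their background, the difference was at least 1.67-fold, though 2 of the null values did not exceed the brighter wild-type background of 17.2. Without the filter its limma adjusted p was 0.355.

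Of the 13 tested members, 2, Irf1 and Socs1, were higher on the experiment 2 array in all 3 lines, near the share of all probe sets (14.6%). Irf3 was the 1 member lower on it in all 3 lines. The pattern was noticed in the values and then tested, so the p-values below are for genes picked on it. In a fit with the experiment as a term, Socs1 was 0.32 ± 0.11 (SE, unadjusted p = 0.0264) and Irf1 0.29 ± 0.11 (SE, unadjusted p = 0.0457) higher in experiment 2 on the log2 scale by limma. The adjusted p were 0.71 and 0.726. Of all probe sets, 14.6% were higher and 14.3% lower in experiment 2 in all 3 lines, and 6.78% had an unadjusted p under 0.05. By limma, 0 of the 7453 passed the adjusted threshold.

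Duplicate arrays of null line 1 differed more for the 13 tested members than those of the other lines. The median absolute log2 difference was 0.34 in line 1, 0.22 in line 2 and 0.18 in wild type, beside 0.20, 0.15 and 0.16 for all probe sets tested. The largest was 0.93, for Irgm1 in line 1.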
